A study of Homo sapiens with 4 samples.

Results

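The 75 genes examined here carry the names of mitochondrial ribosomal proteins and were chosen by name, as the rows whose symbol starts with MRPL or MRPS followed by a digit. They made up 75 of the 18398 RefSeq transcripts listed for each library, 47 with an MRPL symbol (large subunit) and 28 with an MRPS symbol (small subunit). The protein of MRPS36 is now placed in the 2-oxoglutarate dehydrogenase complex and not in the ribosome, and it stays in all counts by symbol. RNA was sequenced from Huh7 and Huh1, human hepatocellular carcinoma lines long kept in culture, which had received an siRNA against ODC1 or a negative control (NC) siRNA. Each of the 4 groups, Huh7 with ODC1 siRNA, Huh7 with NC siRNA, Huh1 with ODC1 siRNA and Huh1 with NC siRNA, was 1 library, so no group had a replicate. The labels give no other agent, allele or time for any group, and each line derives from a single tumour.

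Mitochondria hold their own ribosomes, which translate the handful of respiratory chain proteins that mitochondrial DNA encodes. The small subunit reads the messenger RNA and the large subunit joins the amino acids, and every protein of both subunits is encoded in the nucleus and imported. Many of these proteins descend from bacterial ribosomal proteins, and the others were added during the evolution of mitochondria. ODC1 encodes ornithine decarboxylase, which makes putrescine, the precursor of the polyamine spermidine. Spermidine supplies the hypusine residue of the translation factor eIF5A, and hypusinated eIF5A is known to support the production of certain mitochondrial proteins. The libraries measure RNA, not protein or translation.

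Values were RPKM, reads scaled to transcript length and library depth. Levels can thus be compared between genes within a library as far as the transcript length used is right. Library depth, worked out from the spacing of low RPKM values, was between 10215332 and 13384836 reads. ODC1 itself stood at 7.50 RPKM with ODC1 siRNA against 167 with NC siRNA in Huh7 and at 25.01 against 103 RPKM in Huh1. Of the 8 hepatocyte markers examined, ALB, APOA2, SERPINA1 and FGB were at or above 150.7 RPKM in every library and HNF4A lay between 42.3 and 86.1 RPKM. AFP was at 687 and 865 RPKM in Huh7 with ODC1 and NC siRNA, against 23.8 and 24.8 RPKM in Huh1. APOA1 (11.1 to 49.5 RPKM) and TTR (5.10 to 44.0 RPKM) were low, and the summed level of the endothelial markers was at most 0.0222 RPKM. The fibroblast markers COL1A1, COL1A2, DCN and LUM summed to 367 RPKM with ODC1 siRNA and 282 RPKM with NC siRNA in Huh7, against 15.6 and 12.1 RPKM in Huh1. The blood cell markers, nearly all CD68, summed to 6.20 and 3.84 RPKM in Huh7 with ODC1 and NC siRNA, against 24.8 and 23.3 RPKM in Huh1, with HBB at 0 and CD3E at or near 0. With ODC1 siRNA, ALB fell (log2 change -0.32 over both lines) and TTR and LUM rose (0.47 and 0.39) in the limma test described below. The part of these marker levels in the results was not tested.

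All 75 genes were expressed, and none was at 0 in any library. The lowest value was 7.31 RPKM and the highest 204 RPKM. Their median was 36.0 RPKM with ODC1 siRNA and 38.0 RPKM with NC siRNA in Huh7, and 41.7 and 42.0 RPKM in Huh1, while that of all tested transcripts lay between 10.2 and 11.1 RPKM. The 84 tested cytosolic ribosomal protein transcripts had medians of 781 and 825 RPKM in Huh7 and 908 and 914 RPKM in Huh1 under ODC1 and NC siRNA.

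The most abundant was MRPL51, a large subunit protein without a bacterial counterpart, at 204 RPKM with ODC1 siRNA against 183 with NC siRNA in Huh7 and 189.7 RPKM with ODC1 siRNA against 185 with NC siRNA in Huh1. It led every library, and its 4 values lay close together. The other genes of the 5 most abundant were ranked by the mean of log2(RPKM + 1), on which MRPL37 came next, at 72.7 RPKM with ODC1 siRNA against 79.6 with NC siRNA in Huh7 and 108 RPKM with ODC1 siRNA against 114 with NC siRNA in Huh1. MRPS15, the counterpart of bacterial S15, stood at 73.7 RPKM with ODC1 siRNA against 75.5 with NC siRNA in Huh7 and 101 RPKM with ODC1 siRNA against 112 with NC siRNA in Huh1, and MRPS35 at 75.0 RPKM with ODC1 siRNA against 78.0 with NC siRNA in Huh7 and 92.8 RPKM with ODC1 siRNA against 96.5 with NC siRNA in Huh1. MRPL20, the counterpart of bacterial L20, was the remaining one and is described with the siRNA changes below. By RPKM in Huh7 alone, MRPL40 came next after MRPL51 in both libraries, and its levels are given with the line differences.

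The least abundant was MRPS14, the counterpart of bacterial S14, at 8.17 RPKM with ODC1 siRNA against 8.45 with NC siRNA in Huh7 and 7.56 RPKM with ODC1 siRNA against 7.31 with NC siRNA in Huh1. MRPL19 stood at 8.22 RPKM with ODC1 siRNA against 10.2 with NC siRNA in Huh7 and 13.7 RPKM with ODC1 siRNA against 14.1 with NC siRNA in Huh1. MRPL22, whose bacterial counterpart lines the exit tunnel, stood at 10.9 RPKM with ODC1 siRNA against 9.84 with NC siRNA in Huh7 and 15.7 RPKM with ODC1 siRNA against 16.2 with NC siRNA in Huh1. MRPL35 and MRPS31, which complete the 5 lowest, are described with the line differences. Levels thus spanned more than an order of magnitude among proteins that the assembled ribosome holds mostly as single copies. This span depends on the transcript lengths used. The GENCODE transcripts of the 5 lowest hold 2115 (MRPS14), 3479 (MRPL19), 3176 (MRPL22), 3727 (MRPL35) and 1462 (MRPS31) bases. Whether the cells use shorter forms was not tested. The order of the 75 levels was nearly the same with ODC1 and NC siRNA within a line (Spearman's rho of levels 0.963 in Huh7 and 0.985 in Huh1) and less alike between lines (0.735 with ODC1 siRNA and 0.733 with NC siRNA). These coefficients run across genes that share libraries and are descriptions only.

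The first comparison set ODC1 against NC siRNA. Over both lines, MRPL3 and MRPS22 fell and no gene of the 75 rose past the threshold. The test was limma's moderated test on log2(RPKM + 1) with line and siRNA as terms, at a Benjamini-Hochberg adjusted p under 0.05 over 12039 transcripts. Among all tested transcripts, 0.615% were called lower and 1.5% higher, so 2 of 75 called lower is 2.67%, from a count too small to read as a property of the group. At an unadjusted p under 0.05 the count was 12 of 75 (16.0%), against 19.0% of all tested transcripts. Of these, 10 were lower (13.3%) and 2 higher (2.67%), beside 8.25% and 10.7% of all tested transcripts. The number called over all transcripts, 255 here, itself moved between 0 and 480 with the settings of the fit.

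MRPL3 encodes the counterpart of bacterial L3, which reaches from the surface of the large subunit towards its catalytic centre. In Huh7 it was at 60.9 RPKM with ODC1 siRNA against 96.0 with NC siRNA, and in Huh1 at 47.5 RPKM with ODC1 siRNA against 62.3 with NC siRNA. Both ODC1 libraries lay below both NC libraries. The log2 change was -0.65 in Huh7 and -0.39 in Huh1, and -0.52 over both lines (SE 0.083, limma adjusted p 0.0260). The ODC1 level was 63.4% of the NC level in Huh7, with an exact 95% interval of 58.9% to 68.3% on 1097 and 2066 reads. In Huh1 it was 76.1%, with an interval of 70.1% to 82.7% on 940 and 1472 reads. These Clopper-Pearson intervals cover counting error only, here and below. MRPL3 (NM_007208) lies on chromosome 3 at 131462212-131502969, minus strand, in GRCh38 (GENCODE release 29), and no exon of another protein-coding gene overlaps those of this transcript. It has 1 named pseudogene with which reads could be shared.

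MRPS22 encodes a small subunit protein with no bacterial counterpart, and inherited variants of it cause mitochondrial disease. It stood at 31.2 RPKM with ODC1 siRNA against 43.5 with NC siRNA in Huh7, and at 37.3 RPKM with ODC1 siRNA against 49.3 with NC siRNA in Huh1. Again both ODC1 libraries were below both NC libraries. Its log2 change was -0.47 in Huh7, -0.39 in Huh1 and -0.43 over both lines (SE 0.076, limma adjusted p 0.0336). The ODC1 level was 71.7% of the NC level in Huh7 (62.7% to 81.9%, on 358 and 596 reads) and 75.6% in Huh1 (67.2% to 85.0%, on 470 and 741 reads). MRPS22 (NM_020191) lies on chromosome 3 at 139344019-139357043, plus strand, in GRCh38, where exons of COPB2 overlap those of this transcript on the opposite strand. Whether counting used strand is not stated, so the reads of these genes cannot be told apart. The adjusted p of both genes lay close to the threshold. Neither was called after quantile normalization, with 0.1 in place of 1 as pseudocount, with the minimum at 5 RPKM or removed, or without the trend, where the MRPL3 adjusted p lay between 0.0505 and 0.293 and that of MRPS22 between 0.0551 and 0.293.

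**Figure D1:**
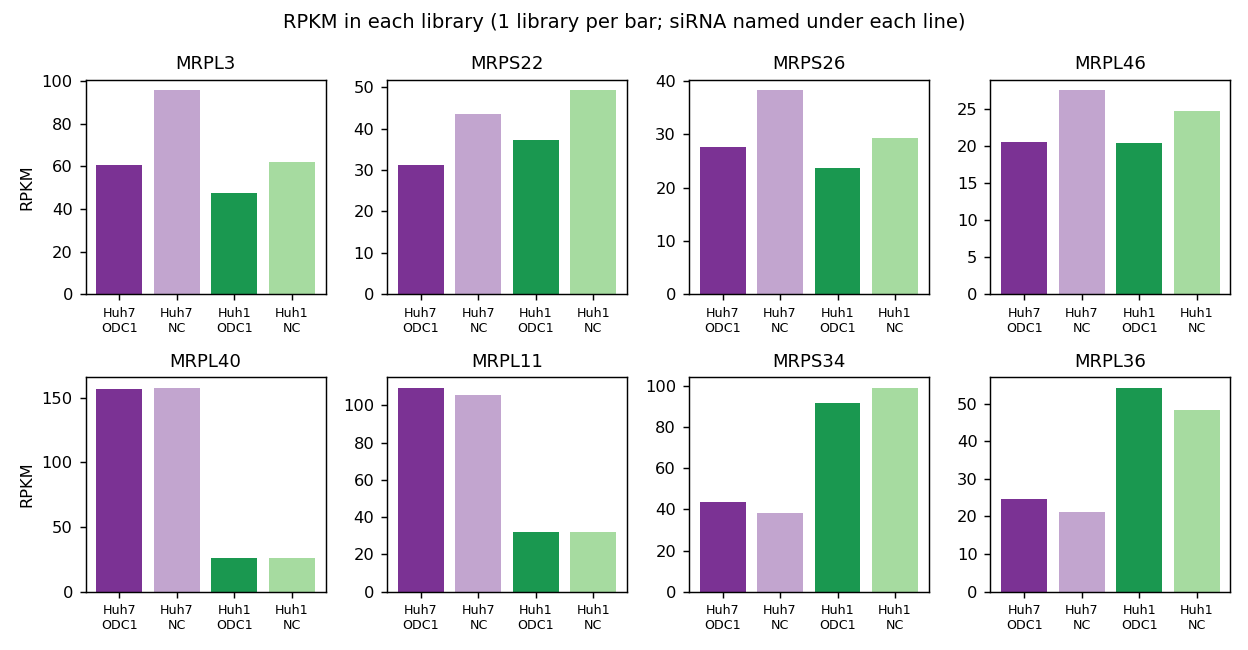
RPKM of 8 genes in the 4 libraries, 1 bar a library, each panel with its own axis from 0. MRPL3, MRPS22, MRPS26 and MRPL46 are lower with ODC1 than with NC siRNA in each line, while MRPL40 and MRPL11 are higher and MRPS34 and MRPL36 lower in both Huh7 libraries than in both Huh1 libraries.

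MRPS26 and MRPL46 came next in size and did not pass the threshold. MRPS26, a small subunit protein found only in mitochondria, stood at 27.6 RPKM with ODC1 siRNA against 38.3 with NC siRNA in Huh7 and at 23.7 RPKM with ODC1 siRNA against 29.4 with NC siRNA in Huh1. Its ODC1 level was 72.0% of the NC level in Huh7 (62.1% to 83.4%) and 80.7% in Huh1 (69.1% to 94.3%). The log2 change over both lines was -0.38 (SE 0.084, limma adjusted p 0.0612). MRPL46, a large subunit protein found only in mitochondria, stood at 20.6 RPKM with ODC1 siRNA against 27.6 with NC siRNA in Huh7 and at 20.4 RPKM with ODC1 siRNA against 24.8 with NC siRNA in Huh1. Its log2 change was -0.34 (SE 0.086, limma adjusted p 0.0859), with ODC1 levels at 74.4% of NC in Huh7 (62.3% to 88.7%) and 82.2% in Huh1 (69.2% to 97.6%). All of these intervals lay below 100%, while the test over lines did not call the genes. The genes were picked for the size of their change, and the intervals are not adjusted for that choice. Exons of an unnamed transcript, AC013489.1, overlap those of MRPL46 on the same strand.

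Whole reads could be recovered for 34 of the 75 genes. In Huh7, 10 of the 34 had an interval below 100% of NC (29.4%) and 4 (MRPL24, MRPL33, MRPL51 and MRPS34) had one above it (11.8%), beside 21.3% and 18.6% of the 3082 tested transcripts with whole reads. In Huh1, 11 had an interval below 100% (32.4%) and 0 had one above, beside 13.1% and 14.5%. Both lines had it below 100% for 7 genes (20.6%) and above for 0, beside 6.65% and 7.33%, and the 7 were MRPL3, MRPS22, MRPS26, MRPL46, MRPL20, MRPS2 and MRPS23. Intervals narrow as reads grow, the sets were not matched on reads, and the counts cover no difference between cultures.

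The next lowest changes were in MRPL20, at 80.0 RPKM with ODC1 siRNA against 98.4 with NC siRNA in Huh7 and 78.6 RPKM with ODC1 siRNA against 92.3 with NC siRNA in Huh1 (log2 change -0.26, limma adjusted p 0.0870). MRPS2, the counterpart of bacterial S2, stood at 30.2 RPKM with ODC1 siRNA against 38.9 with NC siRNA in Huh7 and 60.7 RPKM with ODC1 siRNA against 67.3 with NC siRNA in Huh1 (-0.25). MRPL34, the counterpart of bacterial L34, stood at 21.1 RPKM with ODC1 siRNA against 23.5 with NC siRNA in Huh7 and 26.3 RPKM with ODC1 siRNA against 33.7 with NC siRNA in Huh1 (-0.24). MRPL28, the counterpart of bacterial L28, stood at 43.4 RPKM with ODC1 siRNA against 50.4 with NC siRNA in Huh7 and 59.0 RPKM with ODC1 siRNA against 68.7 with NC siRNA in Huh1 (-0.21). In each of these genes the 2 ODC1 values were below the NC value of their own line.

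In the small subunit, MRPS28 was at 39.2 RPKM with ODC1 siRNA against 45.1 with NC siRNA in Huh7 and 23.2 RPKM with ODC1 siRNA against 26.4 with NC siRNA in Huh1 (log2 change -0.19). MRPS36 was at 20.2 RPKM with ODC1 siRNA against 21.5 with NC siRNA in Huh7 and 23.9 RPKM with ODC1 siRNA against 29.2 with NC siRNA in Huh1 (-0.19). None of these 6 genes passed the limma test, with adjusted p between 0.087 and 0.306.

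Of the changes in the other direction none passed. The highest was MRPL53, a mitochondria-specific large subunit protein, at 22.3 RPKM with ODC1 siRNA against 18.3 with NC siRNA in Huh7 and 33.0 RPKM with ODC1 siRNA against 29.4 with NC siRNA in Huh1 (log2 change 0.22, SE 0.084, limma adjusted p 0.209). Exons of CCDC142 overlap its exons on the same strand. MRPL36, the counterpart of bacterial L36 and one of the smallest ribosomal proteins, had a change of 0.18, and its levels are given with the line differences. MRPL50 was at 38.3 RPKM with ODC1 siRNA against 32.2 with NC siRNA in Huh7 and 39.7 RPKM with ODC1 siRNA against 37.8 with NC siRNA in Huh1 (0.16). Higher values with ODC1 siRNA were present in both lines for each of these genes.

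MRPL17, the counterpart of bacterial L17, was at 28.1 RPKM with ODC1 siRNA against 25.3 with NC siRNA in Huh7 and 20.6 RPKM with ODC1 siRNA against 18.9 with NC siRNA in Huh1 (0.14). MRPL33 was at 85.0 RPKM with ODC1 siRNA against 67.1 with NC siRNA in Huh7 and 65.5 RPKM with ODC1 siRNA against 68.2 with NC siRNA in Huh1 (0.14), so its higher value was in Huh7 and not in Huh1. Of the small subunit, MRPS25 was at 18.4 RPKM with ODC1 siRNA against 15.8 with NC siRNA in Huh7 and 22.3 RPKM with ODC1 siRNA against 20.8 with NC siRNA in Huh1 (0.15), MRPS10 at 41.8 RPKM with ODC1 siRNA against 37.9 with NC siRNA in Huh7 and 41.7 RPKM with ODC1 siRNA against 38.1 with NC siRNA in Huh1 (0.13) and MRPS33 at 54.5 RPKM with ODC1 siRNA against 50.8 with NC siRNA in Huh7 and 65.3 RPKM with ODC1 siRNA against 66.2 with NC siRNA in Huh1 (0.04). MRPS21 and MRPS34, with changes of 0.14 and 0.04, complete the 5 highest of the small subunit.

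**Figure D2:**
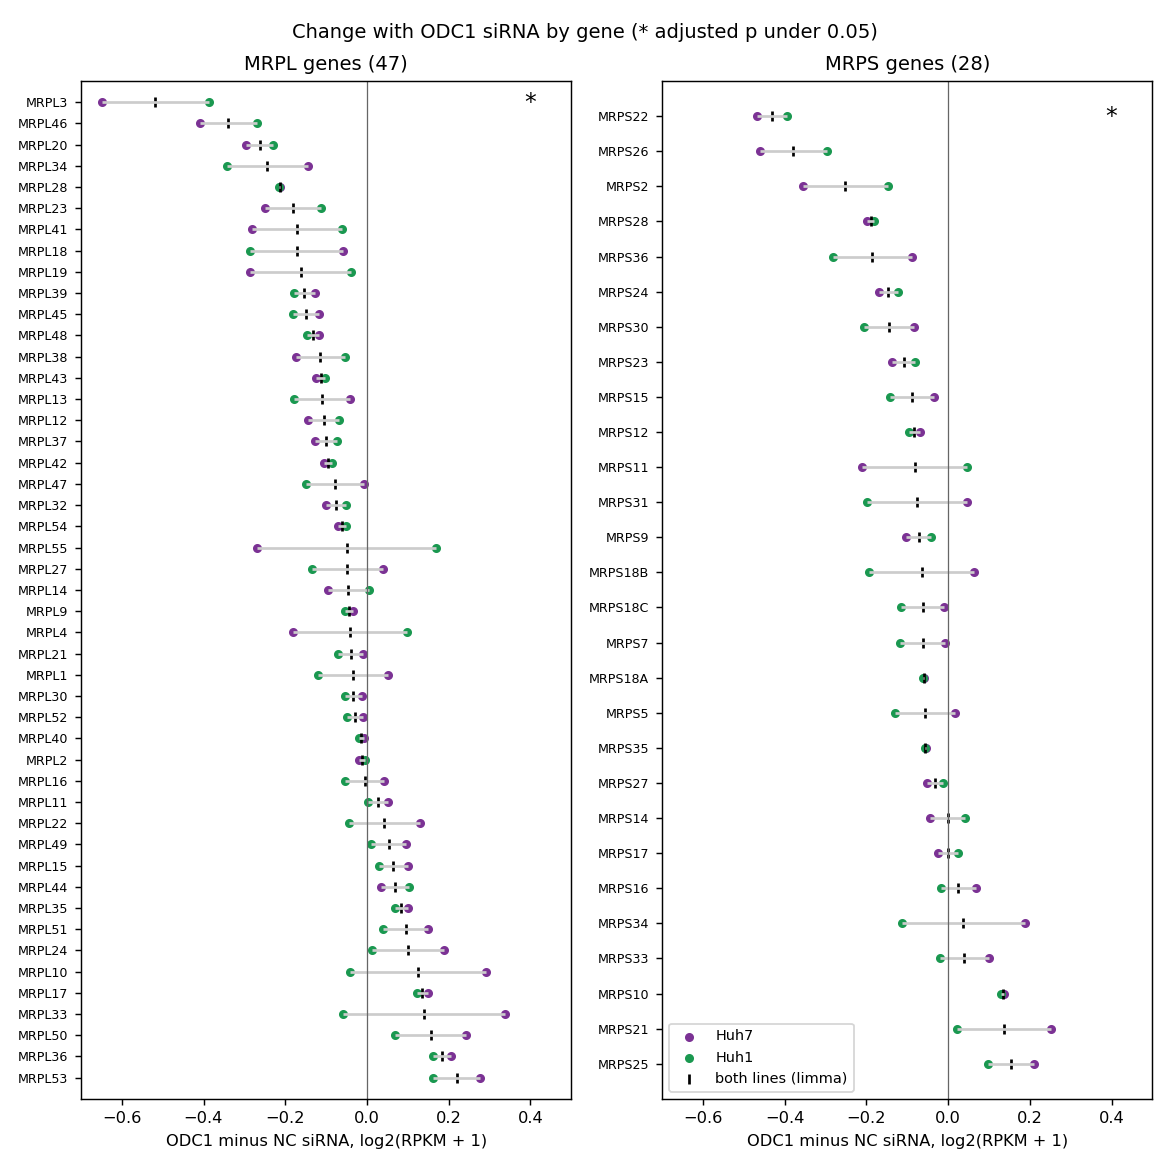
Change of each gene with ODC1 siRNA, as ODC1 minus NC siRNA on log2(RPKM + 1), in Huh7 (purple) and Huh1 (green), with the limma estimate over both lines as a black tick. MRPL genes are on the left and MRPS genes on the right. Stars mark MRPL3 and MRPS22, and the long bars, such as that of MRPL55, join lines with unlike changes.

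The median change of each subunit was slightly below 0. The median log2 change over both lines was -0.045 for the 47 MRPL genes and -0.064 for the 28 MRPS genes, against 0.006 for all tested transcripts. Below 0 were 33 of 47 MRPL genes (70.2%) and 21 of 28 MRPS genes (75.0%), beside 48.5% of all tested transcripts. In Huh7 the medians were -0.033 and -0.047, with all tested transcripts at -0.002. In Huh1 they were -0.053 and -0.104, with all tested transcripts at 0.017. MRPS30 and MRPS18A belong to the large subunit by structure despite their symbols, and with these moved and MRPS36 set aside the medians over both lines were -0.048 for 49 large and -0.062 for 25 small subunit genes. No test was run between the subunits. The 84 tested cytosolic ribosomal protein transcripts had a median of -0.012.

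Division by origin gave a like picture. The 47 genes with a bacterial counterpart had a median of -0.050 and the 28 without one, MRPS36 among them, one of -0.086. Of those without a counterpart, 19 (67.9%) were below 0 in both lines, beside 24 of the 47 (51.1%) with a bacterial counterpart and 3612 of all 12039 tested transcripts. Split by structure, the medians of the large subunit were -0.043 for 31 genes with a bacterial counterpart and -0.098 for 18 without one. In the small subunit they were -0.064 for 16 genes and -0.055 for 9, so the lower median without a counterpart was not seen there. MRPL3 belongs to the bacterial kind, and MRPS22, MRPS26 and MRPL46 to the mitochondrial kind.

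Within each line, genes were counted when RPKM + 1 was at least 20% lower or 25% higher with ODC1 than with NC siRNA, a rule of size with no test. In Huh7, 5 genes were lower (MRPL3, MRPS22, MRPS26, MRPL46 and MRPS2) and 1 was higher (MRPL33). Of all transcripts with at least 1 RPKM in Huh7, 11.7% were lower and 11% higher by this rule, and these backgrounds include many weakly expressed transcripts. In Huh1, MRPL3, MRPS22 and MRPL34 were lower and none was higher, beside backgrounds of 3.36% lower and 6.55% higher. MRPL3 and MRPS22 were the genes past the rule in both lines. The share of all transcripts past it in both lines was not counted. The limma fit had called the same genes from the same libraries, so this overlap is no independent evidence.

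Across the 75 genes, the changes in Huh7 and Huh1 had a Pearson's r of 0.584 and a Spearman's rho of 0.510, and r was 0.485 over the 73 genes without MRPL3 and MRPS22. Over all tested transcripts r was 0.446. These values run across genes of the same 4 libraries and carry no p. In both lines 43 genes were below 0 (57.3%), beside 3612 of all 12039 tested transcripts. Above 0 in both were 14 (18.7%), beside 34.1%, and 18 had opposite signs (24.0%), beside 35.9%. The difference in siRNA change between the lines is the residual of the fit and cannot be tested.

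The genes with the most unlike changes were MRPL55, MRPL33, MRPL10, MRPS34 and MRPL4. MRPL55 was at 17.6 RPKM with ODC1 siRNA against 21.4 with NC siRNA in Huh7, a change of -0.27, and at 38.1 RPKM with ODC1 siRNA against 33.8 with NC siRNA in Huh1, a change of 0.17. It rested on as few as 124 reads, and its percent of NC had intervals of 64.9% to 104% in Huh7 and 95.8% to 133% in Huh1, so neither line differed beyond counting error. MRPL33 was 127% of NC in Huh7 (111% to 145%) and 96.0% in Huh1 (83.7% to 110%). MRPL10, of the flexible stalk, was at 22.6 RPKM with ODC1 siRNA against 18.3 with NC siRNA in Huh7 and 23.6 RPKM with ODC1 siRNA against 24.3 with NC siRNA in Huh1. MRPL4 was at 17.8 RPKM with ODC1 siRNA against 20.3 with NC siRNA in Huh7 and 20.1 RPKM with ODC1 siRNA against 18.7 with NC siRNA in Huh1.

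**Figure D3:**
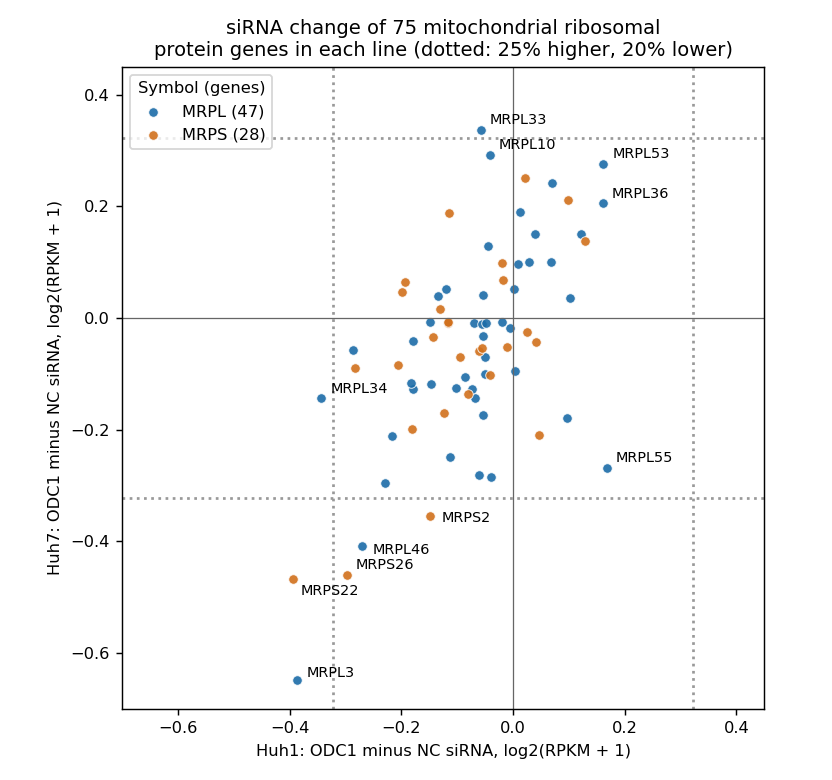
Change of the 75 genes with ODC1 siRNA in Huh1 (horizontal) and Huh7 (vertical), both as ODC1 minus NC siRNA on log2(RPKM + 1), MRPL in blue and MRPS in orange. Dotted lines mark 20% lower and 25% higher. MRPL3 and MRPS22 lie past that size in both lines, and most genes lie near the origin.

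MRPL3 and MRPS22 also share a short word in their transcripts. An earlier search of these same data had found ATATCAT in many transcripts that fell with ODC1 siRNA, so its presence here is a description and no independent evidence. Each line below shows the word in capitals with 10 bases on either side, on the sense strand of the GENCODE release 29 transcript. The MRPL3 sites lie in the 3' untranslated region at transcript positions 1252 and 1333, and the MRPS22 site in the coding sequence at 489.

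MRPL3, site at 1252: agccagagtgATATCATaaccaccaga
MRPL3, site at 1333: gggcataaatATATCATtcataccccc
MRPS22, site at 489: gtttactgatATATCATatagcatacc

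On the sense strand the word was found in 7 of 75 genes (9.33%), against 16.6% of 11666 tested transcripts with a sequence. The genes are short, and the transcripts with the word were longer over the whole set (median 4722 bases, against 2741 without it). Of the transcripts called lower, 52.1% of 73 held it, and of those called higher 7.82% of 179. The other 5 genes that hold it were MRPL45 in the coding sequence and MRPL19, MRPL33, MRPL50 and MRPS16 in the 3' untranslated region. Their changes over both lines were -0.15, -0.16, 0.14, 0.16 and 0.02, none of which passed, so the word was present in genes on either side of 0. MRPS26 and MRPL46 do not hold it. The transcript of ODC1 holds it once, in the coding sequence. A second word, TCGGAGA, was searched in the same way. It was in 34.1% of the 179 called higher and 2.74% of the 73 called lower, against 10.9% of all 11666. Of the 75 genes 4 held it (5.33%), all in the coding sequence: MRPL53 (0.22), MRPL15 (0.06), MRPL22 (0.04) and MRPL38 (-0.11). None of these changes passed. Transcripts with it were again longer (median 3868 bases, against 2899). These shares use calls from the same data and are descriptions. Whether either word has a part in the changes was not tested.

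The wider pathway was then examined through lists of genes. Of the 6 mitochondrial ribosomal proteins under other symbols, none passed. CHCHD1, a small subunit protein, was at 42.5 RPKM with ODC1 siRNA against 37.0 with NC siRNA in Huh7 and 54.3 RPKM with ODC1 siRNA against 44.3 with NC siRNA in Huh1 (log2 change 0.24, limma adjusted p 0.141). ICT1, a large subunit protein that rescues stalled ribosomes, was at 30.7 RPKM with ODC1 siRNA against 34.7 with NC siRNA in Huh7 and 26.5 RPKM with ODC1 siRNA against 33.1 with NC siRNA in Huh1 (-0.24, adjusted p 0.168 by limma), and DAP3, a GTP-binding small subunit protein, at 106 RPKM with ODC1 siRNA against 91.1 with NC siRNA in Huh7 and 88.6 RPKM with ODC1 siRNA against 87.6 with NC siRNA in Huh1 (0.12). The 13 translation factors had a median of 0.024 and none passed. Those with the largest mean change were TACO1, an activator of COX1 translation (-0.21), GFM2, a ribosome recycling factor (0.18), and GFM1, an elongation factor (-0.18).

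Of 21 assembly and rRNA modification genes none passed, and the median was 0.022. C7orf30, also named MALSU1, a large subunit assembly factor, was at 43.0 RPKM with ODC1 siRNA against 59.3 with NC siRNA in Huh7 and 36.1 RPKM with ODC1 siRNA against 42.2 with NC siRNA in Huh1 (-0.34, limma adjusted p 0.0820). The rRNA methyltransferase gene TFB1M (-0.26) and the pseudouridine synthase gene RPUSD4 (0.26) followed. Of 9 transcription and mRNA stability genes none passed, with a median of -0.070. TFAM, which packages mitochondrial DNA, was at 34.9 RPKM with ODC1 siRNA against 43.2 with NC siRNA in Huh7 and 66.5 RPKM with ODC1 siRNA against 77.9 with NC siRNA in Huh1 (-0.26, limma adjusted p 0.106). MTERF (0.14) and the poly(A) polymerase gene MTPAP (-0.13) came after TFAM. Of the 3 genes on the list for mitochondrial protein insertion, COX18 (-0.37), OXA1L (-0.15) and LETM1 (-0.03), none passed. All 3 were below 0 over both lines, beside 48.5% of all tested transcripts, but LETM1 was at 0.0099 in Huh7.

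EIF5A2, the less abundant form of eIF5A, was the one gene of 4 in the eIF5A list that passed. It stood at 2.83 RPKM with ODC1 siRNA against 5.57 with NC siRNA in Huh7 and 5.36 RPKM with ODC1 siRNA against 8.90 with NC siRNA in Huh1, a log2 change of -0.71 (SE 0.117, limma adjusted p 0.0276). The ODC1 library was below the NC library in each line. The call was lost under 6 of the alternative settings, with adjusted p between 0.0534 and 0.999984. EIF5A itself had a change of -0.05, and the hypusine enzyme genes DHPS and DOHH had changes of -0.09 and -0.19. None of these 3 passed.

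The 37 nuclear genes of complex I, the entry point of the respiratory chain, had a median change of 0.053. NDUFB1 (0.28) and NDUFB10 (-0.26) did not pass. Of the 8 regulators of nuclear genes of mitochondria none passed. GABPB1, a subunit of the factor GABP, had a change of -0.23, ESRRA one of 0.15 and PPARGC1A one of 0.24, and the last of these was at most 1.30 RPKM in any library.

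The second comparison set Huh7 against Huh1, with the siRNA arms as the repeat. Of the 75 genes, 36 were lower and 15 higher in Huh7 at a limma adjusted p under 0.05. Among all tested transcripts 30.8% were lower and 43.1% higher, so 48.0% of the 75 genes were called lower and 20.0% higher. The median difference, Huh7 minus Huh1 on log2(RPKM + 1), was -0.17 for the 75 genes and 0.13 for all tested transcripts. For the 47 MRPL genes it was -0.14, with 20 lower and 12 higher, and for the 28 MRPS genes -0.28, with 16 lower and 3 higher. Cytosolic ribosomal protein transcripts had a median of -0.22 and complex I genes one of -0.22, so the lower position was not shown to be particular to mitochondrial ribosomes. Summed over the MRPS genes, the level was 1078 RPKM with ODC1 siRNA and 1117 with NC siRNA in Huh7, against 1354 and 1445 RPKM in Huh1. Over the MRPL genes the sums were 2212 and 2266 RPKM in Huh7, against 2205 and 2315 RPKM in Huh1.

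MRPL40 showed the largest difference of the 75. It stood at 157 RPKM with ODC1 siRNA and 158 with NC siRNA in Huh7, against 25.8 and 26.2 RPKM under the same siRNAs in Huh1. The lines did not overlap, and the siRNA arms of each line were nearly equal. The ratio of Huh7 to Huh1 was 6.08 with ODC1 siRNA and 6.03 with NC siRNA, and the log2 difference 2.55 (SE 0.069, limma adjusted p 1.01e-08). MRPL40 encodes a mitochondria-specific large subunit protein and lies on chromosome 22 at 19431902-19436075, plus strand, in GRCh38, in the region that is deleted in DiGeorge syndrome.

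MRPL11, the counterpart of bacterial L11 at the base of the stalk, stood at 109.6 RPKM with ODC1 siRNA and 106 with NC siRNA in Huh7, against 32.1 and 32.1 RPKM under the same siRNAs in Huh1. Its log2 difference was 1.71 (SE 0.071, limma adjusted p 1.14e-07). MRPL52, a mitochondria-specific protein, stood at 55.6 RPKM with ODC1 siRNA and 55.9 with NC siRNA in Huh7, against 26.4 and 27.4 RPKM under the same siRNAs in Huh1, a difference of 1.02. MRPS31 stood at 23.5 RPKM with ODC1 siRNA and 22.8 with NC siRNA in Huh7, against 10.4 and 12.1 RPKM under the same siRNAs in Huh1, a difference of 0.99. In each of these the Huh7 libraries lay above those of Huh1.

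Smaller positive differences were those of MRPS28 (0.74), MRPL35 (0.55), MRPL3 (0.48) and MRPS26 (0.29). MRPL35 stood at 18.5 RPKM with ODC1 siRNA and 17.1 with NC siRNA in Huh7, against 12.2 and 11.6 RPKM under the same siRNAs in Huh1. For MRPL3 the Huh7 ODC1 library lay below the Huh1 NC library, so the lines overlapped although the limma test called the difference (adjusted p 0.000708). MRPS26 overlapped in the same way (adjusted p 0.0123 by limma).

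The lowest of the 75 was MRPS34, a mitochondria-specific small subunit protein, at 43.4 RPKM with ODC1 siRNA and 38.0 with NC siRNA in Huh7, against 91.5 and 99.1 RPKM under the same siRNAs in Huh1. Its log2 difference was -1.21 (SE 0.087, limma adjusted p 3.29e-06). MRPL36 stood at 24.6 RPKM with ODC1 siRNA and 21.2 with NC siRNA in Huh7, against 54.3 and 48.4 RPKM under the same siRNAs in Huh1 (-1.13), and MRPL41 at 32.4 RPKM with ODC1 siRNA and 39.6 with NC siRNA in Huh7, against 77.1 and 80.5 RPKM under the same siRNAs in Huh1 (-1.11). Both Huh7 libraries of each lay far below both Huh1 libraries.

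MRPL15, the counterpart of bacterial L15, stood at 20.9 RPKM with ODC1 siRNA and 19.4 with NC siRNA in Huh7, against 43.8 and 42.9 RPKM under the same siRNAs in Huh1 (-1.07). MRPS21, the counterpart of bacterial S21, stood at 52.8 RPKM with ODC1 siRNA and 44.2 with NC siRNA in Huh7, against 98.9 and 97.5 RPKM under the same siRNAs in Huh1 (-1.01), though it has 8 named pseudogenes with which reads could be shared. MRPL44, which carries a ribonuclease III-like fold, stood at 22.6 RPKM with ODC1 siRNA and 22.0 with NC siRNA in Huh7, against 45.2 and 42.0 RPKM under the same siRNAs in Huh1 (-0.94). For these genes too the lines were apart.

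MRPL43 stood at 12.2 RPKM with ODC1 siRNA and 13.3 with NC siRNA in Huh7, against 23.6 and 25.4 RPKM under the same siRNAs in Huh1 (-0.89). Exons of SEMA4G and TWNK overlap those of MRPL43 on the opposite strand, and whether counting used strand is not stated. MRPS12, whose bacterial counterpart guards decoding accuracy, stood at 29.9 RPKM with ODC1 siRNA and 31.4 with NC siRNA in Huh7, against 53.9 and 57.6 RPKM under the same siRNAs in Huh1 (-0.84). MRPS16, whose exons are overlapped by those of DNAJC9 on the same strand, stood at 38.2 RPKM with ODC1 siRNA and 36.5 with NC siRNA in Huh7, against 67.1 and 68.0 RPKM under the same siRNAs in Huh1 (-0.84). MRPS2 had a difference of -0.88. All passed the limma test, with adjusted p of at most 2.38e-05. At least 2-fold differences in both siRNA arms were found for 4 genes lower (5.33%) and 3 higher (4%) in Huh7, beside 11.3% and 18.7% of all tested transcripts.

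**Figure D4:**
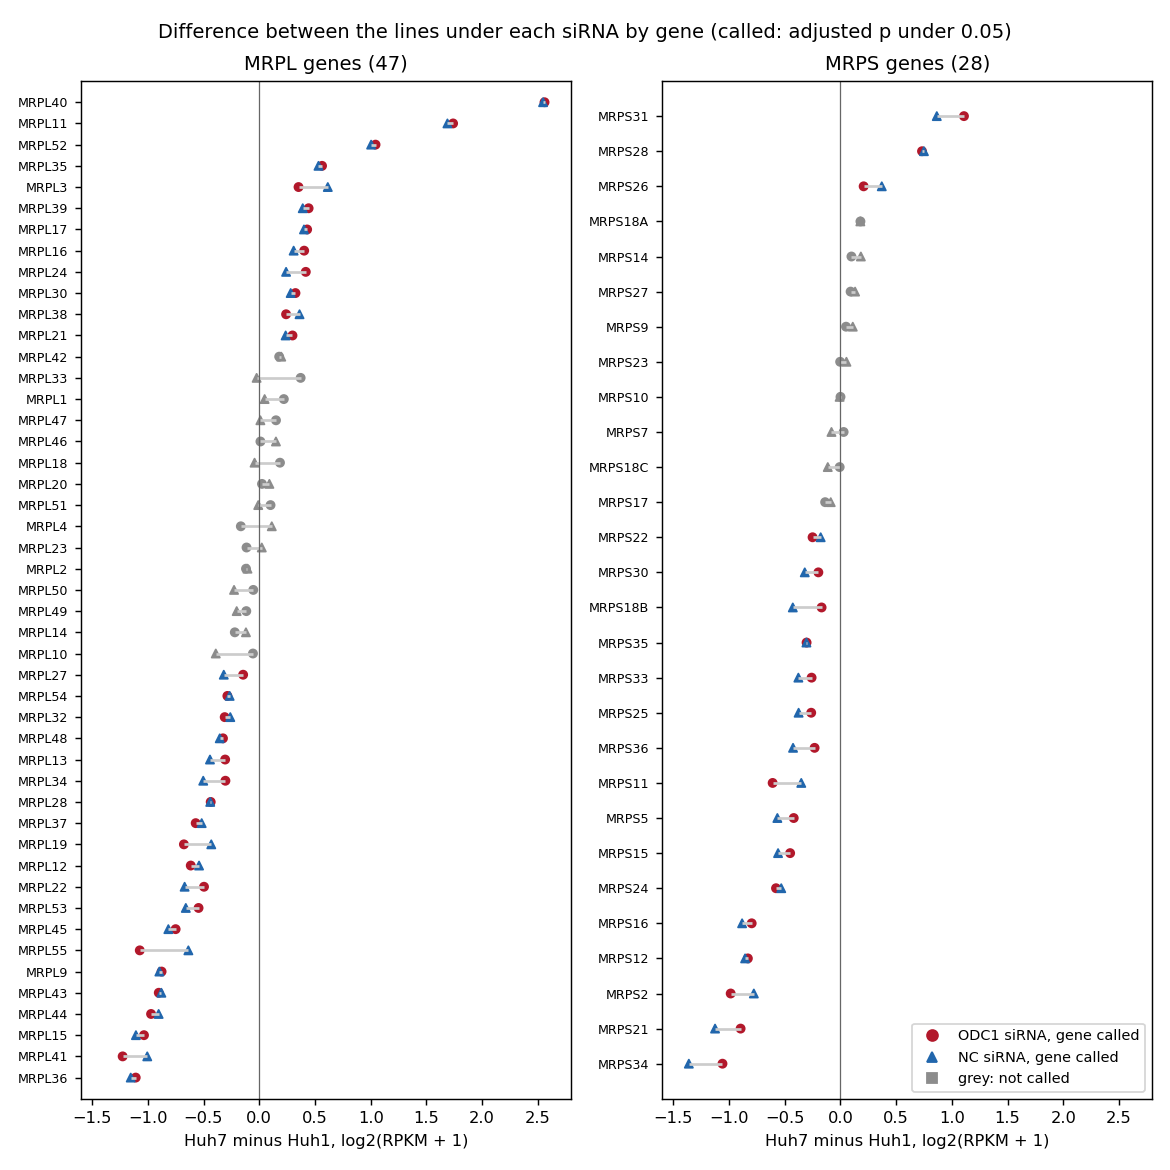
Difference between the lines for each gene, as Huh7 minus Huh1 on log2(RPKM + 1), with ODC1 siRNA (circles) and NC siRNA (triangles). Coloured genes passed the limma test and grey genes did not. MRPL40, MRPL11, MRPL52 and MRPS31 stand highest and MRPS34 lowest, and the arms of most genes lie close together.

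The line difference was nearly the same in both siRNA arms for MRPL40 (2.56 with ODC1 siRNA and 2.55 with NC siRNA) and moved most for MRPL55 (-1.07 with ODC1 siRNA and -0.64 with NC siRNA). Over all 75 genes, both Huh7 libraries lay below both Huh1 libraries in 40 (53.3%) and above them in 20 (26.7%), and 15 overlapped. Of all tested transcripts 35.4% lay below and 48.3% above by the same rule.

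Chromosomal neighbours were set beside the genes with line differences, a description chosen after the line differences had been seen. For each gene, the nearest 3 tested transcripts on either side in the RefSeq order were taken. All 6 neighbours of MRPL40 were higher in Huh7, with log2 differences between 1.67 and 2.35. They were SLC25A1, CLTCL1, HIRA, C22orf39, UFD1L and CDC45. UFD1L, part of a complex that extracts proteins for degradation, stood at 203 and 198 RPKM in Huh7 with ODC1 and NC siRNA, against 37.6 and 39.4 RPKM in Huh1. HIRA, a histone chaperone, stood at 80.6 and 73.9 RPKM in Huh7, against 18.0 and 18.2 RPKM in Huh1.

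The 6 neighbours of MRPL11 were also all above 0, between 0.19 for PELI3 and 2.44 for DPP3. Those of MRPS31 lay between 0.59 and 1.04, and those of MRPS28 between 0.59 and 2.84. Around MRPS34 on chromosome 16 all 6 were below 0, between -1.61 for NME3 and -0.49 for HN1L. Around MRPL52 the neighbours went both ways, with MMP14 at 2.23 and ABHD4 at -0.91. Those of MRPL36, itself at -1.13, went both ways too, 3 above 0 and 3 below. MRPS12, at -0.84, had neighbours with a median of 0.25, and MRPL35, at 0.55, neighbours with a median of -0.07. MRPL3, at 0.48, had neighbours with a median of -0.004. The other 15 of the 18 genes named for the lines had the sign of their neighbours' median. Over all 75 genes 43 had the sign of their neighbours' median (57.3%), beside 64.7% of all matched transcripts.

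Over the 75 genes, Pearson's r between the line difference of a gene and the median of its neighbours was 0.697, and Spearman's rho was 0.617. Without MRPL40 and MRPL11, r was 0.584 over 73 genes. Over 11702 tested transcripts with matched neighbours r was 0.351. For the siRNA change the same coefficient was 0.109 over the 75 genes and 0.112 over all. These points share libraries, and nearby members share neighbours, so the coefficients are descriptions with no p. Some neighbours also have exons that overlap those of the gene, such as SEMA4G for MRPL43 and DNAJC9 for MRPS16, so reads could be shared. The part of such overlaps in the coefficients was not tested. DNA copy number was not analysed here.

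**Figure D5:**
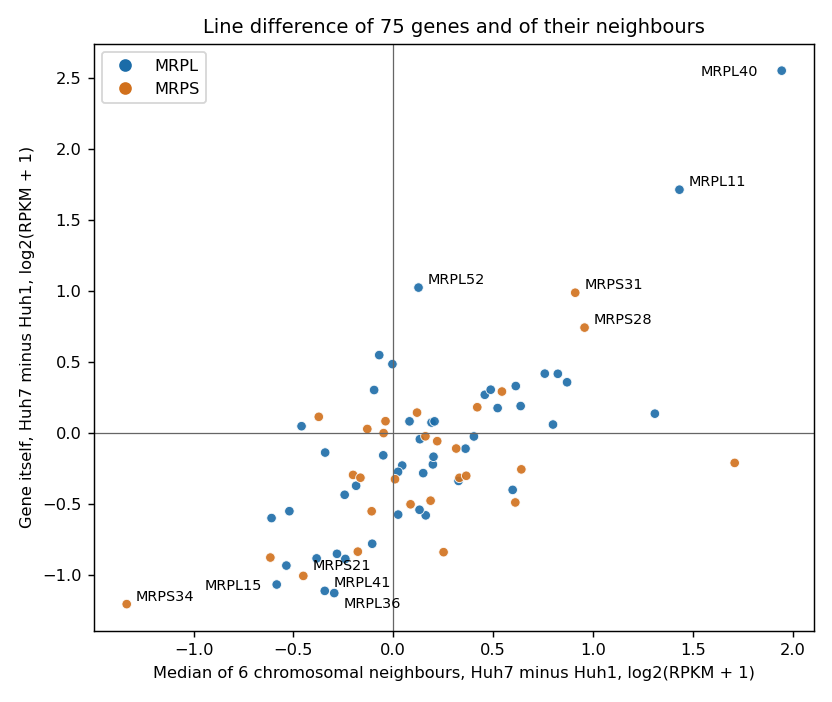
Line difference of each gene (vertical) against the median line difference of its 6 nearest tested neighbours on the chromosome (horizontal), both as Huh7 minus Huh1 on log2(RPKM + 1), MRPL in blue and MRPS in orange. MRPL40, MRPL11, MRPS31 and MRPS28 lie at upper right and MRPS34 at lower left, while MRPL52 stands above neighbours with a median near 0.

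Promoters were read from RefSeq (GRCh38.p14) as 250 bases before to 50 bases after the start that RefSeq gives a gene, which can differ from the GENCODE starts above, and 67 of the 75 genes had one. The cores of 3 motifs were searched on both strands, since their factors are textbook regulators of nuclear genes for mitochondria. The ETS core bound by GABP, CCGGAAG, was in 41.8% of the 67 promoters, against 20.0% of 9773 promoters of tested transcripts and 10.7% of all 27305. The YY1 core, AAGATGG, was in 34.3%, against 7.75% and 6.06%. The NRF1 core, GCATGCG, was in 10.4%, against 6.63% and 4.13%. At least 1 of the 3 was in 65.7% of the 67, against 30.3% and 18.9%. The cores were chosen for their known link to such genes, the sets were not matched for base composition, and a match is no evidence of binding.

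By symbol, the ETS core was in 40.0% of 40 large and 44.4% of 27 small subunit promoters, and the YY1 core in 35.0% and 33.3%. Promoters of the genes on which the results turn are shown, with each core in capitals. CTTCCGG is the ETS core read on the other strand. MRPL3 and MRPS22 are shown because they fell with ODC1 siRNA, MRPL40 for the largest line difference, and MRPL52 because it was the one gene with all 3 cores.

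MRPL3, chr3:131502922-131503221, minus strand: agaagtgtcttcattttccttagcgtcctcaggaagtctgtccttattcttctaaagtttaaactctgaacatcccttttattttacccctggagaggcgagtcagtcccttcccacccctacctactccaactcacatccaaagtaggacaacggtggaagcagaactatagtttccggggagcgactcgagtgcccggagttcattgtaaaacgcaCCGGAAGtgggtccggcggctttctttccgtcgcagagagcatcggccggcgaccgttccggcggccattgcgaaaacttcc
MRPS22, chr3:139343744-139344043, plus strand: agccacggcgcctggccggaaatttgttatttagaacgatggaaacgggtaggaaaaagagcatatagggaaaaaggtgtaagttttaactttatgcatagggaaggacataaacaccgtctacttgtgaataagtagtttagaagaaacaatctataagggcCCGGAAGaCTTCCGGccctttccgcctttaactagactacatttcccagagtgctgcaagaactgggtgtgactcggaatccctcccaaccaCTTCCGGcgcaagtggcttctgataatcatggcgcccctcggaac
MRPL40, chr22:19432295-19432594, plus strand: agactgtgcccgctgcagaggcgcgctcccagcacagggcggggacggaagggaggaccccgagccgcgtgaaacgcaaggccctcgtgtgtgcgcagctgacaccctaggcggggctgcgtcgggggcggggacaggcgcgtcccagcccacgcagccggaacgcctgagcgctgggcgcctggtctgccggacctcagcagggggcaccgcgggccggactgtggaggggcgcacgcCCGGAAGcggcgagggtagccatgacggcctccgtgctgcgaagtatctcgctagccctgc
MRPL52, chr14:22829637-22829936, plus strand: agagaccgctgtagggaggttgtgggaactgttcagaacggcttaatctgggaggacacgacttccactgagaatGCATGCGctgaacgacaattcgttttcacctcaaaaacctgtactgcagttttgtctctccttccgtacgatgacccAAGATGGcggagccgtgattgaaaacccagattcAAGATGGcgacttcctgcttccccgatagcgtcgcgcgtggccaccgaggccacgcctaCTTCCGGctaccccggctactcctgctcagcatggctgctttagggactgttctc

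MRPL3 and MRPL40 each hold 1 ETS core and MRPS22 holds 3, a pair of them almost adjoining on opposite strands. MRPL52 holds 1 ETS, 1 NRF1 and 2 YY1 cores. MRPS26, whose siRNA change was next in size, also holds the ETS core, while MRPL46 holds the YY1 core. The ETS core stood in 28 of the 67 promoters, most of them of genes not called for the siRNA. By line, it was in 8 of 12 promoters of genes higher in Huh7, 12 of 34 of genes lower and 8 of 21 of genes not called, and these small counts were not tested.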

How the data were processed

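Per the labels' protocols, RNA came from Trizol extraction and 1 ug entered the Illumina TruSeq kit. The submitters' processing notes name CASAVA 1.8.2, TopHat2 2.0.9 and hg19, while how reads were counted, with which annotation and whether by strand, is not given in the sources used here. The authors deposited RPKM values per RefSeq transcript, with no file header and 1 library per group. RPKM values are not counts, so no count model was used. For 34 of the 75 genes the RPKM steps gave whole reads (within 0.0001 of a whole number, transcript length within 10% of GENCODE release 29), 124 to 3346 per library, which the exact 95% intervals use.

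Values were taken as log2(RPKM + 1), which understates the change of low genes. limma 3.58.1 (R 4.3.3) with an intensity trend was fitted to the 12039 transcripts with at least 1 RPKM in any library, with terms for line and siRNA. The 1 residual degree of freedom measures how far the siRNA change differs between Huh7 and Huh1, and the prior adds 7.42, so a gene's error is set mostly by other genes. The labels do not say whether libraries came from separate cultures, so p-values reflect only the spread among these 4. Adjustment was by Benjamini and Hochberg at 0.05. On simulated data the fit recovered most changed transcripts, but in most draws it made more false calls than the threshold allows for.

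The genes, lists and tests were chosen with earlier results of these data known. Named were genes past the siRNA threshold, the 5 largest siRNA changes each way per subunit, the 5 largest line differences each way per subunit among those that passed, the 5 highest and 5 lowest levels, and the 5 most unlike changes between lines. In each list, any gene that passed and the 3 largest changes were named. The neighbours and the word ATATCAT were chosen after values had been seen. Genes of 4 lists not found by symbol are not analysed here. How many complex I genes passed, and which, is not reported here. GENCODE places exons of other genes over those of 13 of the 75 transcripts on the opposite strand and 9 on the same strand. Named pseudogenes exist for 32 (68 in all), MRPL3, MRPL35, MRPL40 and MRPS31 among them. The values of all these genes are less certain.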

Additional observations from a re-analysis of the deposited data

Results flagged for a closer look

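For 10 of the genes named by rule, the siRNA change had opposite signs in the lines. Each line has 1 ODC1 and 1 NC library, so the difference was not tested. The change in Huh7 minus that in Huh1, on log2(RPKM + 1), was 0.33 for MRPL10, 0.17 for MRPL22, 0.39 for MRPL33, -0.28 for MRPL4, -0.44 for MRPL55, -0.085 for MRPS14, 0.086 for MRPS16, 0.24 for MRPS31, 0.12 for MRPS33 and 0.30 for MRPS34. Another 8 of the 75 had opposite signs, 18 in all (24.0%), beside 35.9% of all tested transcripts.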

How the results depend on the processing

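Of the 2 genes called lower with ODC1 siRNA, 0 were called after quantile normalization, with a pseudocount of 0.1, with no minimum level, with a minimum of 5 RPKM, without the trend or without the line term, where the adjusted p rose to 0.999984. With a trend on counting variance 1 was called, MRPL3. Upper quartile scaling called 3, adding MRPS26 (log2 change -0.39, adjusted p 0.0312). Over all tested transcripts 255 were called, against 52 after quantile normalization, 54 with a pseudocount of 0.1, 108 with a minimum of 5 RPKM, 324 with a trend on counting variance and 480 with upper quartile scaling. No minimum, no trend and no line term left 0 by limma, where 2040, 1830 and 22 had an unadjusted p under 0.05. The marker calls of ALB, TTR and LUM were lost after quantile normalization, with a pseudocount of 0.1 and in these last 3 fits. The cause was not tested. With a 1.5-fold rule 0 genes were past it in Huh1 and 1 in Huh7, and with a 2-fold rule 0 in both. The settings turned the direction of none of the 23 genes named for the siRNA or the 18 named for the lines, and 20 and 16 of these kept their side of the threshold under all.

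Quantile normalization shifted the median line difference of all tested transcripts by -0.115. The median line difference of MRPL genes was then -0.23, beside 0.018 for all. It was -0.24 with upper quartile scaling, beside 0.043 for all, and -0.14 with a pseudocount of 0.1. The MRPS median was -0.37 with upper quartile scaling. MRPS26 lost its line call with both scalings (adjusted p 0.0601 and 0.0590) and without the siRNA term, and MRPL3 without the siRNA term (0.119).

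With each library left out, no residual degree of freedom remains and values carry no test. The MRPL median line difference then lay between -0.119 and -0.116. The MRPS median siRNA change lay between -0.104 without either Huh7 library and -0.047 without either Huh1 library. No paired analysis beyond the line term was possible because each group has 1 library. Depth limits the siRNA changes of genes with few reads, such as MRPL55.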
